A study of Saccharomyces cerevisiae with 24 samples.

Results

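RTC3 (YHR087W), a small gene of budding yeast, is described here in 24 RNA-seq libraries, as 1 of 12289 features of the deposited count table. It was selected on measured values, as the feature that rose most in both degron strains: its change after 60 min in dcp2-ideg and in lsm1-ideg, beyond the change in wt. Those changes are therefore given as values without a test. The 12 features that overlap RTC3 or lie within 3 kb of it, on either strand, served as a local comparison.

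The libraries came from 3 strains of Saccharomyces cerevisiae sampled at 2 times, which makes 6 groups of 4 libraries. The dcp2-ideg strain has an inducible degron for DCP2, the lsm1-ideg strain has one for LSM1, and wt has neither, per the labels and the series' design. The T60 groups received 100 uM IAA (an auxin) with 1 uM beta-oestradiol for 60 min, wt included, and the T0 groups received neither. All strains were grown in the rich medium YPD, and poly(A) RNA was sequenced with strand information. The labels do not say how the degrons were built or that replicates were separate cultures, so p-values cover only the variation among these libraries, and this may be technical.

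Dcp2 is the catalytic subunit of the enzyme that removes the 5' cap of an mRNA, after which the exonuclease Xrn1 degrades the body. Lsm1 belongs to the cytoplasmic Lsm1-7 ring, which binds shortened poly(A) tails and activates decapping. Rtc3 is a protein of poorly known function assigned to RNA metabolism. RefSeq describes it as similar in structure to SBDS, the human ribosome-maturation protein whose yeast ortholog is Sdo1, and notes that loss of RTC3 suppresses the temperature sensitivity of a telomere-capping mutant, cdc13-1. RTC3 mRNA is a known stress-induced transcript, and the activators Msn2 and Msn4 act on many such genes through the stress response element (STRE), with the letters AGGGG.

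The RTC3 feature lies on the plus strand at chrVIII:280743-281327 (build sacCer3) and is 585 bases long. Its coding sequence, 280820 to 281155, holds 111 codons in 1 stretch of 336 bases, with 77 bases of the feature before it and 172 after it. It is short: only 8.16% of 5785 coding features with coordinates compared were shorter. No other feature of the table overlaps it on the plus strand, and a blastn search of the genome returned only the gene itself, so its reads had no near-identical copy to be shared with. The 300 bases before the feature are shown because they hold the STRE letters. They are the plus strand of chrVIII:280443-280742, from the RefSeq genome of the same build, with the matches in capitals, which read AGGGG on the minus strand.
RTC3 upstream window: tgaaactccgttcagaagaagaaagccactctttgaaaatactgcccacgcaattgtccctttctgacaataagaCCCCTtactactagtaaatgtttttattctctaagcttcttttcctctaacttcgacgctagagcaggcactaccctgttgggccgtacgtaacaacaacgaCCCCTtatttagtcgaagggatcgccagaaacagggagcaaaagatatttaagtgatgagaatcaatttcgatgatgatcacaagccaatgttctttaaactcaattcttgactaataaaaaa
Both strands were searched. The 2 matches to AGGGG lie 225 and 123 bases before the feature start. At least 1 match was present in 22.5% of 5784 windows of the same length before coding features, and at least 2 were present in 3.94%. The window had 0 matches to TNAGGGAT (the post-diauxic shift element, in 2.75% of windows), to GAANNTTC and TTCNNGAA (the 2 phases of the heat shock element core, in 12.2% and 13.8%), to GGGACAAA (the Hot1 motif, in 0.864%), to GCGTGGGCG (the motif of the Zif268 fingers used in synthetic oestradiol-dependent activators, in 0.0173%) and to TATAAA (in 45.6%). These matches describe the letters of the window and no binding was measured.

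Levels are given in CPM, read counts brought to a common library size with TMM factors, which adjust library sizes so that most features centre on no change. RTC3 had 206, 122, 183 and 200 CPM in the dcp2-ideg T60 libraries of replicates 1 to 4, against 7.81, 6.33, 5.67 and 7.04 CPM in dcp2-ideg T0. It had 68.5, 60.9, 63.5 and 61.5 CPM in lsm1-ideg T60, against 6.36, 6.58, 6.31 and 4.73 CPM in lsm1-ideg T0. In wt it had 5.68, 5.42, 4.73 and 4.39 CPM at T60, against 6.92, 5.49, 5.75 and 5.89 CPM at T0. Every treated degron library was above every untreated one and above every wt library, the dcp2-ideg T60 libraries were all above those of lsm1-ideg T60, and the 4 low groups overlapped each other. The means were 178 ± 38.4 CPM in dcp2-ideg T60 and 6.71 ± 0.922 CPM in dcp2-ideg T0, 63.6 ± 3.44 CPM in lsm1-ideg T60 and 5.997 ± 0.849 CPM in lsm1-ideg T0, and 5.06 ± 0.599 CPM in wt T60 and 6.01 ± 0.630 CPM in wt T0 (SD, n = 4 each).

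**Figure D1:**
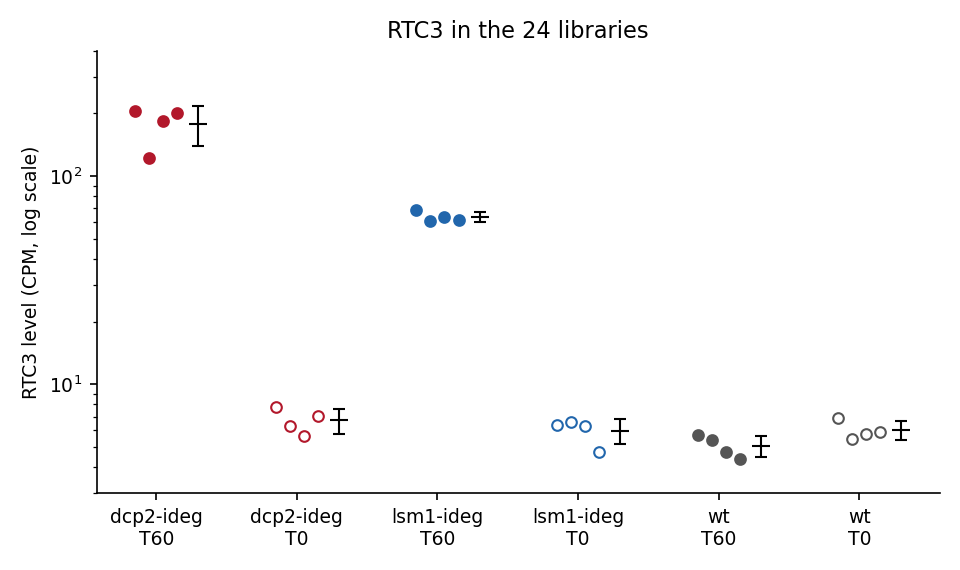
RTC3 level in each library, in CPM on a log axis. Points are libraries in replicate order (filled at T60, open at T0), and the bar beside them is the mean ± SD of the 4. The dcp2-ideg T60 libraries span 122 to 206 CPM, those of lsm1-ideg T60 60.9 to 68.5 CPM, and every other library lies at or below 7.81 CPM.

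RTC3 had between 208 and 16111 counts in a library, so counting error was smaller than the spread of libraries. In bulk RNA, more RTC3 RNA per cell and more cells that hold it cannot be told apart, nor can faster synthesis and slower decay. The log2 change between T60 and T0 was 4.73 ± 0.16 in dcp2-ideg (SE), a 26.5-fold difference, and 3.41 ± 0.15 in lsm1-ideg, a 10.6-fold difference. Beyond the wt change it was 4.98 ± 0.21 in dcp2-ideg (31.5-fold, approximate 95% interval 23.6 to 42.1) and 3.66 ± 0.21 in lsm1-ideg (12.6-fold, interval 9.47 to 16.8). Both values share the wt libraries. Their intervals do not allow for the choice of RTC3 on these same changes, so they are no test. In the same comparisons the median over all 11776 features tested was 0.073 in dcp2-ideg and 0.026 in lsm1-ideg on the log2 scale.

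The label of strongest riser holds among features above a low level only. Ranked by the log2 change beyond wt, RTC3 stood 13th of 11773 features in dcp2-ideg and 18th in lsm1-ideg (features overlapping it left out), and none of the features above it exceeded 1.60 CPM in any library. Of the 12 above it in dcp2-ideg, 9 were called nonetheless, and of the 17 above it in lsm1-ideg edgeR called 0. The features beside it in rank were SNO4, a relative of the Hsp31 chaperones, at 4.998 ± 1.51 (SE) and CUT_GIM_0014 at 4.97 ± 2.65 in dcp2-ideg, and XUT_11R-128 at 3.68 ± 1.90 and PXA2, a peroxisomal fatty acid transporter gene, at 3.51 ± 1.39 in lsm1-ideg. Each of these 4 errors was larger than that of RTC3. Outside the treated degron libraries RTC3 had at most 7.81 CPM, so it reached 10 CPM only where it was high. Among the 6816 features that reached 10 CPM in any library, a limit that a rise helps to pass, RTC3 was the first in both strains. The next were XUT_2R-267 at 3.87 ± 0.32 and CUT_GIM_1308 at 3.46 ± 0.36 in dcp2-ideg. In lsm1-ideg the next were HSP82, the inducible Hsp90 gene, at 2.21 ± 0.32 and RNR2, a ribonucleotide reductase subunit gene, at 1.95 ± 0.16.

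Per kb of feature length, RTC3 had 304 CPM in dcp2-ideg T60, above 95.6% of the 5802 coding features, against 11.5 CPM per kb in dcp2-ideg T0, above 19.4%. It had 109 CPM per kb in lsm1-ideg T60, above 83.1%, against 10.3 in lsm1-ideg T0, above 16.6%. In wt it had 8.65 CPM per kb at T60, above 14.4%, and 10.3 at T0, above 16.98%. RTC3 was thus below 4675 or more coding features in the 4 low groups, and below 253 in dcp2-ideg T60.

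The choice of RTC3 took high rises in both strains and did not use which of them was higher. It drew on the same libraries and changes, so the p-values for RTC3 given here are not independent of that choice. The 2 strains were compared with edgeR's quasi-likelihood model over all features, with p-values adjusted by Benjamini and Hochberg. RTC3 rose more in dcp2-ideg than in lsm1-ideg: the difference between the 2 changes was 1.32 ± 0.20 on the log2 scale (SE, adjusted p = 2.8e-05, edgeR), a 2.50-fold difference with an interval of 1.90 to 3.29. In that comparison 15.2% of features were called higher and 13.3% lower. At T60 its level was 2.79-fold higher in dcp2-ideg than in lsm1-ideg (log2 difference 1.48 ± 0.14, adjusted p = 9.3e-09, edgeR), where 45.9% of features were called in either direction.

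The wt change and the T0 levels enter the values that chose RTC3 and are given without a test. In wt, the same addition gave a log2 change in RTC3 of -0.25 ± 0.15 (SE). For all features edgeR called 0% higher and 0% lower in wt, with 388 features at an unadjusted p under 0.05 and 1 call by DESeq2. Before the addition, RTC3 differed from wt by 0.16 ± 0.15 on the log2 scale in dcp2-ideg and by -0.0014 ± 0.15 in lsm1-ideg. The approximate 95% intervals were 0.916-fold to 1.36-fold for dcp2-ideg and 0.818-fold to 1.22-fold for lsm1-ideg. They do not allow for the choice of RTC3 either. The dcp2-ideg T0 level against that of lsm1-ideg T0 gave 0.16 ± 0.15. Over all features edgeR called 0.824% in dcp2-ideg T0 against wt T0, 0.348% in lsm1-ideg T0 against wt T0 and 0.229% in dcp2-ideg T0 against lsm1-ideg T0.

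The mRNAs of the tagged genes were set against the labels. DCP2 had 68.1 ± 13.2 CPM in dcp2-ideg T60 and 124 ± 29.3 CPM in dcp2-ideg T0, and 131 to 167 CPM in the wt T60 libraries and 133 to 160 CPM in wt T0 (SD, n = 4). The dcp2-ideg T0 libraries, at 83.3 to 146 CPM, overlapped those of wt T0, so DCP2 mRNA does not tell these 2 groups apart. LSM1 had 87.8 ± 3.77 CPM in lsm1-ideg T60 and 102 ± 2.03 CPM in lsm1-ideg T0, below every wt library (152 to 173 CPM at T60, 147 to 162 CPM at T0). Proteins were not analysed here. Library depth was 41.8 M to 83.9 M counts, and the TMM factors of 1.29 to 1.49 in dcp2-ideg T60 stood apart from 0.859 to 1.01 elsewhere. Under total counts alone the median feature in dcp2-ideg moved by 0.57 beyond wt on the log2 scale, and RTC3 by 5.49. With that scaling 90.1% of the calls in this comparison were higher, against 53.8% with TMM.

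On the strand of RTC3, no flanking feature was called higher in dcp2-ideg or in lsm1-ideg beyond wt with TMM scaling. RPF1, a factor of large ribosomal subunit assembly whose feature begins 135 bases downstream, had 77.7, 92.4, 72.0 and 84.8 CPM in dcp2-ideg T60, against 138, 150, 140 and 169 CPM in dcp2-ideg T0. In wt it had 152, 158, 131 and 154 CPM at T60, against 143, 163, 154 and 119 CPM at T0. The dcp2-ideg T60 libraries were below all the others of both strains. NAM8, a U1 snRNP protein gene that ends 703 bases upstream, averaged 51.0 CPM in dcp2-ideg T60 and 53.2 CPM in dcp2-ideg T0, and 64.7 CPM in wt T60 and 62.8 CPM in wt T0. Its groups overlapped across time in each strain.

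Of the 12 flanking features, 4 were called higher and 3 lower in dcp2-ideg beyond wt, where 18.5% of all features were called higher and 15.9% lower. Their median log2 change was 1.15, with a range of -1.22 to 3.08, beside a median of 0.073 over all features. Under total count scaling 7 were called higher and 1 lower, beside 4461 and 490 of all 11776 features. With TMM factors of coding features 5 were higher and 3 lower, beside 2976 and 1157 of all features. All 3 lower ones were coding genes of ribosome biogenesis: GAR1, a protein of the H/ACA snoRNPs that guide pseudouridylation, at -1.22 ± 0.27 (adjusted p = 0.00113, edgeR), IPI1, of the Rix1 complex, at -0.92 ± 0.19, and RPF1 at -0.91 ± 0.15. The IPI1 and RPF1 calls were lost under total count scaling (adjusted p = 0.125 and 0.0635). GAR1 stayed called with that scaling, at -0.72 (adjusted p = 0.0415, edgeR), and ran from -1.34 to -0.91 with 1 library left out. Its highest dcp2-ideg T0 library had 609 CPM, beside a group median of 316 CPM. NAM8 at -0.10 and YNG2, a subunit of the NuA4 histone acetyltransferase, at -0.046 were not called. Neither was YHR086W-A, a small coding feature of at most 0.760 CPM on the strand of RTC3, at 2.51 ± 1.07. Under total count scaling YHR086W-A (adjusted p = 0.0269), YNG2 (at 0.46, 0.0321) and CUT_GIM_1307 (0.00968) were called higher, and DESeq2 called YHR086W-A too (0.0496).

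The 4 called higher with TMM were all unstable or noncoding transcripts of the opposite strand. XUTs are transcripts that accumulate without Xrn1, SUTs are stable unannotated transcripts and CUTs are cryptic ones removed by the nuclear exosome. SUT583, which runs antisense across RTC3 from base 280067 to 281243 and shares 501 bases with it, had 7.63, 8.06, 7.44 and 10.7 CPM in dcp2-ideg T60, against 1.40, 2.87, 1.83 and 1.42 CPM in dcp2-ideg T0. In wt it had 1.67, 1.36, 1.67 and 1.44 CPM at T60, against 1.65, 1.68, 2.27 and 2.34 CPM at T0. The dcp2-ideg T60 libraries did not overlap the rest, and the log2 change beyond wt was 2.54 ± 0.31 (SE, adjusted p = 9.4e-07, edgeR). XUT_8R-137, whose 420 bases lie wholly inside RTC3, had 3.59, 5.44, 3.88 and 6.53 CPM in dcp2-ideg T60, against 0.496, 0.939, 1.44 and 0.606 CPM in dcp2-ideg T0, and 3.08 ± 0.45 as its change beyond wt (adjusted p = 1.0e-05). CUT_GIM_1310, also inside RTC3, changed by 2.87 ± 0.77 and XUT_8R-135, upstream of the feature, by 2.24 ± 0.58. The features share bases: XUT_8R-135 and XUT_8R-137 lie wholly within SUT583, and CUT_GIM_1310 nearly so. The 4 calls are thus not separate measurements.

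In lsm1-ideg beyond wt, edgeR called 0 of the 12, with 2 at an unadjusted p under 0.05 and 2 called by DESeq2, beside 0.187% of all features called higher and 0.0255% lower. SUT583 had 3.03, 3.30, 2.33 and 2.49 CPM in lsm1-ideg T60, against 1.33, 1.51, 1.76 and 1.37 CPM in lsm1-ideg T0, without overlap, and a change beyond wt of 1.27 (adjusted p = 0.0940, edgeR). XUT_8R-137 changed by 1.70 (adjusted p = 0.146). The dcp2-ideg change exceeded the lsm1-ideg change for SUT583 by 1.27 (adjusted p = 0.00296), for XUT_8R-137 by 1.37 (0.0209) and for CUT_GIM_1310 by 2.04 (0.0445). It was below it for IPI1 (-0.72), RPF1 (-0.73) and GAR1 (-1.29). This makes 3 of 12 higher and 3 lower, beside 15.2% and 13.3% of all features. The calls of CUT_GIM_1310 and XUT_8R-137 in that comparison were lost when some single libraries were left out (adjusted p up to 0.0950 and 0.0531), and those of IPI1 and RPF1 under total count scaling (0.359 and 0.218). In wt T60 against T0, edgeR called 0 of the 12, 0 were at an unadjusted p under 0.05, and DESeq2 called 0.

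**Figure D2:**
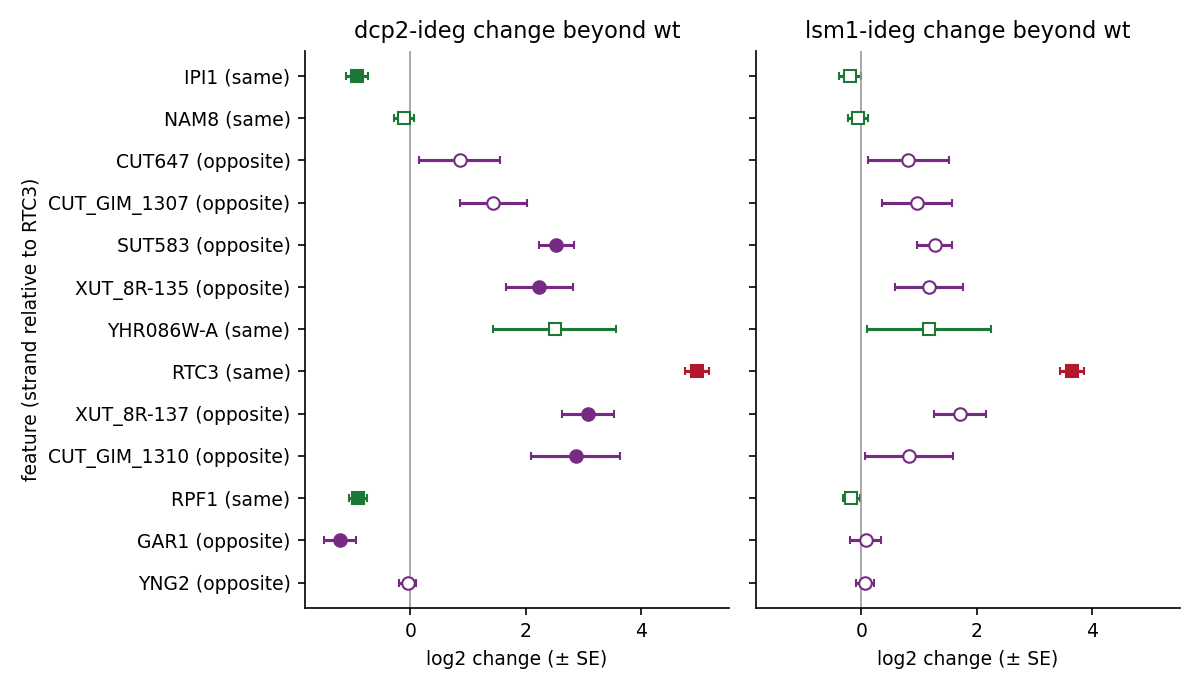
Log2 change beyond wt (± SE) of RTC3 (red) and its 12 flanking features in chromosome order, for dcp2-ideg on the left and lsm1-ideg on the right. Squares are features of the same strand as RTC3 and circles of the opposite strand. Filled symbols passed an adjusted p of 0.05, and RTC3 is filled without a test. With the TMM scaling plotted, the features called higher in dcp2-ideg were of the opposite strand, between 2.24 and 3.08. Under total count scaling YHR086W-A of the same strand was called too.

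Because the antisense features lie over RTC3, their reads were set against those of RTC3 per base. XUT_8R-137 had 4.04% ± 1.71 of the RTC3 reads per base in dcp2-ideg T60 and 19.2% ± 11.9 in dcp2-ideg T0, 4.06% ± 1.08 in lsm1-ideg T60 and 20.6% ± 5.22 in lsm1-ideg T0, and 19.5% ± 2.89 in wt T60 and 25.1% ± 9.44 in wt T0 (SD, n = 4 each). Every treated degron library was below every other one, since 6.22% was the highest there and 8.85% the lowest elsewhere. Antisense levels in the degron strains thus differed by less than the sense level did between times. RTC3 is the divisor of this share and was chosen for its rise in the treated degron libraries. Their lower share is therefore no separate result. For XUTs lying inside the opposite strand of coding genes of at least 100 CPM, the median was 4.75% (quartiles 2.90% to 7.00%, 60 pairs) in dcp2-ideg T60, 3.73% (2.61% to 5.26%, 65 pairs) in lsm1-ideg T60 and 3.58% (74 pairs) in wt T0. RTC3 itself averaged 178 CPM in dcp2-ideg T60, but 63.6 CPM in lsm1-ideg T60 and less in the other groups. Only in dcp2-ideg T60 did it reach 100 CPM, so elsewhere these pairs are of more abundant genes. In the treated degron strains the RTC3 antisense share was within the quartiles of its group in 6 of 8 libraries and below them in 2. How much of the antisense reads is sense RNA counted on the wrong strand was not tested. For SUT583 the share was 2.45% ± 0.659 in dcp2-ideg T60 and 14.4% ± 6.30 in dcp2-ideg T0.

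**Figure D3:**
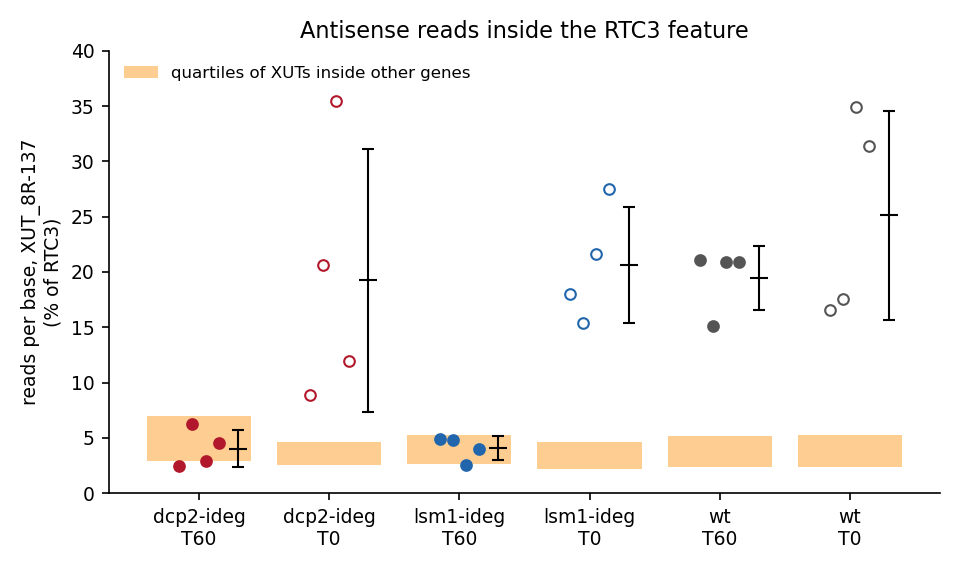
Reads per base of XUT_8R-137 as a percentage of those of RTC3, by library (points, filled at T60) with mean ± SD of the 4. Orange bands are the quartiles over XUTs inside coding genes of at least 100 CPM in that group. RTC3 reached that level only in dcp2-ideg T60, so the other bands are of more abundant genes than RTC3. Treated degron libraries lie at 2.43% to 6.22%, within their bands except 1 library below its band in each group, and all other libraries at 8.85% or more, above theirs. RTC3, the divisor, was chosen for its rise in the treated degron libraries, so their lower share is no separate result.

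The coding genes most like RTC3 were found by Pearson's r of log2 CPM over the 24 libraries, as a description. Since the libraries fall into treated degron groups and the rest, r mostly follows the group means. SSA4, the stress-inducible cytosolic Hsp70 gene, came first with r = 0.973. It had 131, 89.3, 122 and 134 CPM in dcp2-ideg T60, against 43.9, 34.4, 39.5 and 48.9 CPM in dcp2-ideg T0, and 88.1, 83.7, 92.8 and 94.5 CPM in lsm1-ideg T60, against 45.6, 39.2, 38.9 and 44.5 CPM in lsm1-ideg T0. As for RTC3, the treated degron libraries stood above all others and replicate 2 was the lowest of dcp2-ideg T60. The change beyond wt was 1.44 ± 0.17 in dcp2-ideg and 1.02 ± 0.17 in lsm1-ideg on the log2 scale.

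The next were YLL056C (r = 0.958), YNR068C (0.948), OTU1, a deubiquitinase gene of the Cdc48 pathway (0.939), YBR284W (0.936), BIO3, of biotin synthesis (0.934), TLD1 (0.934), BSC5 (0.933), MTQ1, a methyltransferase of a release factor (0.927), and AHA1, which stimulates the Hsp90 ATPase (0.915). In all, 18 of 5751 coding features had an r over 0.9 and the median was -0.254. These 10 genes changed by 0.94 (TLD1) to 2.28 (YNR068C) beyond wt in dcp2-ideg, and by 0.39 (OTU1) to 1.36 (YNR068C) in lsm1-ideg. They were picked for following the group means of RTC3, so these changes are a description. AHA1 was the 1 of them with a larger change in lsm1-ideg (1.28 ± 0.16) than in dcp2-ideg (0.99 ± 0.16).

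**Figure D4:**
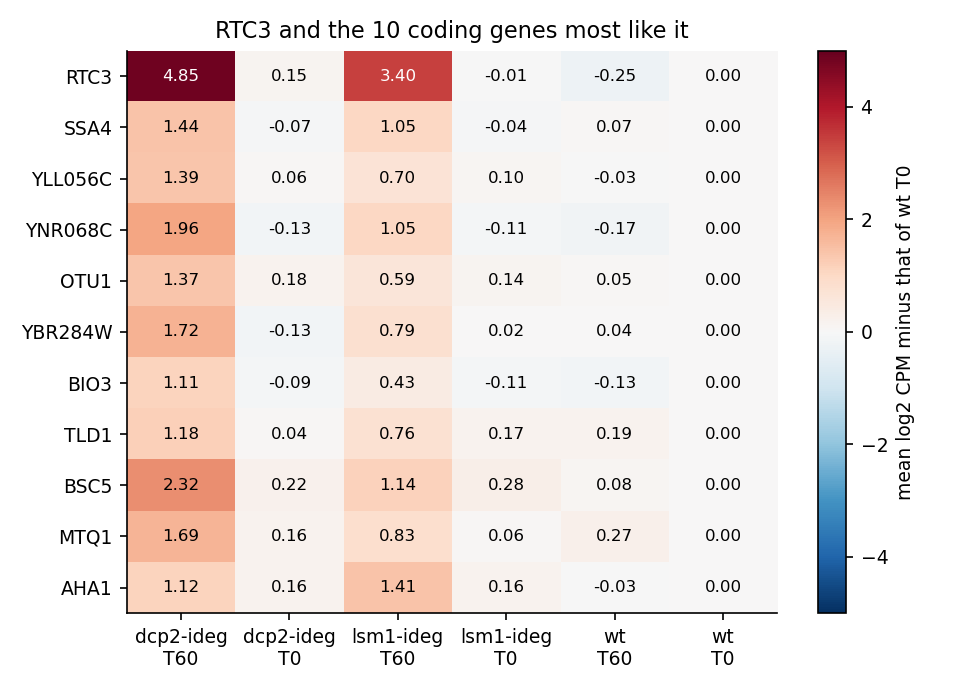
Mean log2 CPM of RTC3 and the 10 coding genes with the highest r to it, each minus its own wt T0 mean, by group. Red is higher than wt T0 and blue lower, and the numbers are the plotted values. RTC3 differs by 4.85 in dcp2-ideg T60 and 3.40 in lsm1-ideg T60, and no other gene shown exceeds 2.32. Since RTC3 was chosen for its rise, its higher values are no separate result.

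After each group's mean was subtracted, likeness fell to smaller values, and no coding feature had an r over 0.8 (median 0.0265). The highest were STF1, which acts with the ATP synthase inhibitor (r = 0.791), TMA10, a ribosome-associated stress protein gene (0.773), TVP15, of Golgi vesicles (0.732), YJL068C, an S-formylglutathione hydrolase gene (0.731), and PNC1, the nicotinamidase gene (0.688). STF1 had 11.8 CPM in lsm1-ideg T0 replicate 4, below 17.05 to 20.6 CPM in the other 3, and TMA10 had 1.68 CPM there, below 3.51 to 4.44 CPM. RTC3 was also lowest in that library of lsm1-ideg T0. STF1 and TMA10 were likewise lowest in replicate 2 of dcp2-ideg T60, at 25.9 and 3.00 CPM. None of these 5 was called beyond wt in dcp2-ideg (STF1 at 0.56 ± 0.22, adjusted p = 0.0538, edgeR) or in lsm1-ideg.

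Lists of genes related to RTC3 by its known regulation or structure were counted in the same tests, with their members chosen knowing earlier results. Stress genes of the Msn2/4 type had 25 of 35 called higher and 0 lower in dcp2-ideg beyond wt, with a median log2 change of 1.15, beside 18.5% of all features higher and 15.9% lower. They included GAD1, the glutamate decarboxylase gene, at 2.44 ± 0.27, GSY2, a glycogen synthase gene, at 1.91 ± 0.21, ALD3, an aldehyde dehydrogenase gene, at 1.83 ± 0.17, and MSC1 at 1.73 ± 0.25. GAD1 had the highest value of the list, 2.44 against 4.98 for RTC3, whose lead is no separate result because it was chosen for its rise. In lsm1-ideg edgeR called 0 of the 35 in either direction, with 4 at an unadjusted p under 0.05, 1 call by DESeq2 and a median of 0.10. Over all features 0.187% were called higher and 0.0255% lower there, so 0 of 35 is near that share. The dcp2-ideg change was called higher than the lsm1-ideg change for 22 of the 35, beside 15.2% of all features.

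The heat shock factor (Hsf1) targets showed another pattern. In lsm1-ideg 7 of 23 were called higher and 0 lower, with a median of 0.91 and every member above 0, beside 0.187% of all features higher. DESeq2 called 11 of the 23, 10 were called under total count scaling, and 19 were at an unadjusted p under 0.05 in edgeR. Over all 11776 features these counts were 90, 34 and 903. The 7 were HSP82 at 2.21 ± 0.32, the cytosolic Hsp70 genes SSA1 at 1.52 ± 0.19, SSA4 at 1.02 ± 0.17 and SSA2 at 0.96 ± 0.17, and the Hsp90 co-chaperone genes AHA1 at 1.28 ± 0.16, STI1 at 1.19 ± 0.22 and CPR6 at 0.80 ± 0.17. The CPR6 call (adjusted p = 0.0463, edgeR) reached 0.111 with 1 library left out. In dcp2-ideg 6 of 23 were called higher and 2 lower, not far from the 18.5% and 15.9% of all features. The median was 0.096. Under total count scaling it was 0.58, with 11 higher and 0 lower, beside 4461 and 490 of all 11776 features. With TMM the smallest p in dcp2-ideg were those of SSA4 at 1.44 ± 0.17, AHA1 at 0.99 ± 0.16, HSP82 at 1.47 ± 0.32 and SSA3, another Hsp70 gene, at 0.70 ± 0.16. The dcp2-ideg change was called below the lsm1-ideg change for 11 of the 23 and above it for 1, beside 13.3% and 15.2% of all features. SSA1 with SSA2, and HSP82 with HSC82, are near-identical pairs, and their split of reads is uncertain.

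Of 13 osmotic stress targets of the kinase Hog1, 6 were called higher and 2 lower in dcp2-ideg, with a median of 1.03, beside 18.5% and 15.9% of all features. Under total count scaling 10 were higher and 1 lower, with a median of 1.54, beside 4461 and 490 of all 11776 features. All 6 called higher with TMM are on the Msn2/4 list too, so their count repeats that one. Besides ALD3, the smallest p were those of the glycerol phosphatase gene GPP1 at -1.31 ± 0.21, the catalase gene CTT1 at 1.15 ± 0.21 and the small heat shock gene HSP12 at 2.04 ± 0.44. In lsm1-ideg GPP1 alone was called, at -1.02 ± 0.21 (adjusted p = 0.0353, edgeR), up to 0.117 with 1 library left out. Over all features 0.187% were called higher and 0.0255% lower there. Of 12 genes of the Hog1 pathway and stress transcription factors, 0 were called higher and 1 lower in dcp2-ideg, with a median of 0.020. The 1 was SHO1, an osmosensor, at -0.83 ± 0.16. Under total count scaling 5 of the 12 were higher and 0 lower, with 5 near the share of all features, 4461 of 11776. In lsm1-ideg edgeR called 0 of the 12, with 1 at an unadjusted p under 0.05 and 0 called by DESeq2. This is near the low share of all features called there.

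SDO1, the structural relative of RTC3, had 62.8, 72.3, 53.5 and 77.6 CPM in dcp2-ideg T60, against 76.8, 73.8, 69.9 and 124 CPM in dcp2-ideg T0. It had 95.3, 84.6, 76.1 and 71.2 CPM in lsm1-ideg T60, against 84.0, 85.8, 77.8 and 70.3 CPM in lsm1-ideg T0. The times overlapped in both strains, and its change beyond wt was -0.56 ± 0.24 in dcp2-ideg (adjusted p = 0.0706, edgeR) and -0.15 ± 0.24 in lsm1-ideg (0.944). Of 12 genes of late 60S subunit maturation, SDO1 included, 9 were called lower and 0 higher in dcp2-ideg, with a median of -0.70. Over all features 15.9% were called lower and 18.5% higher. Under total count scaling 2 of the 12 were lower and 1 higher, beside 490 and 4461 of all 11776 features. The smallest p were those of YVH1 at -0.89 ± 0.15, ALB1 at -1.06 ± 0.19, RLP24 at -0.94 ± 0.17 and ARX1 at -0.83 ± 0.17. In lsm1-ideg edgeR called 0 of the 12, none was at an unadjusted p under 0.05 and DESeq2 called 0. Over all features edgeR called 0.187% higher and 0.0255% lower there, so 0 calls in a short list is near that share. The 5 other genes named for restriction of telomere capping gave 0 calls in both strains by edgeR and by DESeq2, and 0 at an unadjusted p under 0.05. Their median in dcp2-ideg was 0.17, although 4 of them were called higher under total count scaling, where 4461 of all 11776 features were.

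**Figure D5:**
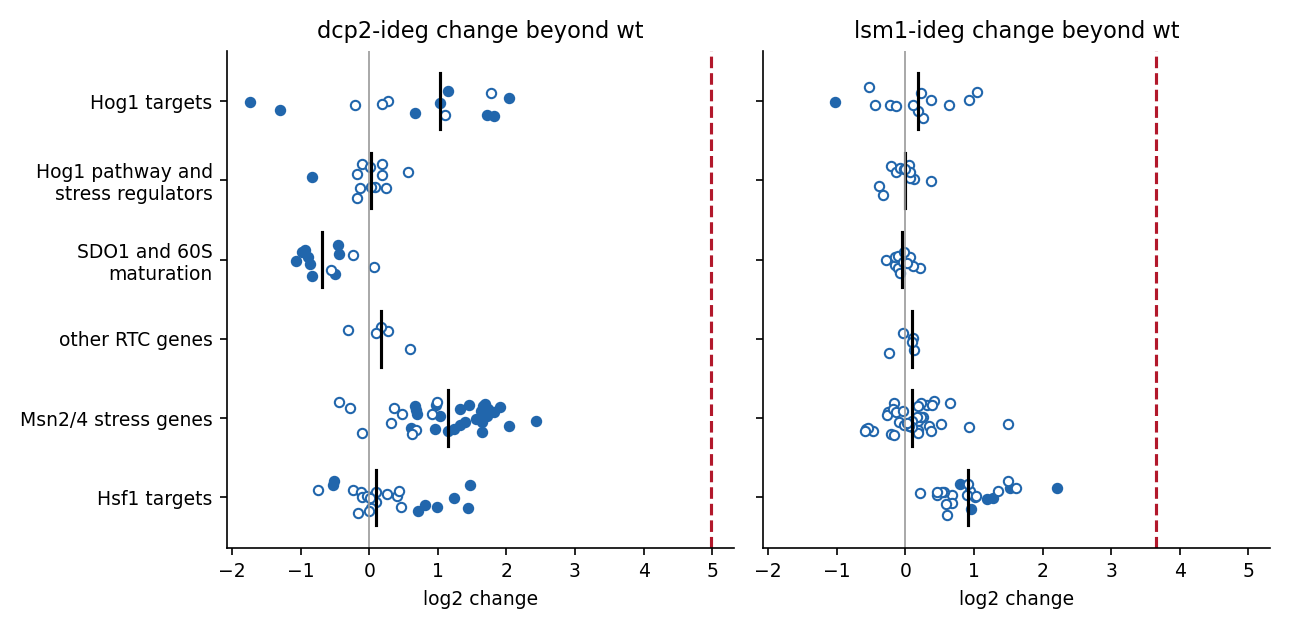
Log2 change beyond wt of the members of 6 gene lists, for dcp2-ideg on the left and lsm1-ideg on the right. Points are genes, filled where the adjusted p was under 0.05, black bars are list medians and the dashed red line is RTC3. No list member reaches RTC3, which was chosen for its rise, so this is no separate result. The largest are 2.44 in dcp2-ideg (GAD1) and 2.21 in lsm1-ideg (HSP82).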

How the data were processed

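The measurement is a raw read count for every feature, as deposited by the authors without normalization. The tools STAR and featureCounts and the build sacCer3 are named in the submitters' processing notes, with versions and strand setting not given in the sources used here. Libraries were made from poly(A) RNA by a strand-marking dUTP protocol, per the labels. Groups and replicate numbers come from the sample titles. All columns matched a sample. RTC3, its flanking features, the gene lists and the tests were chosen with earlier results of these data known.

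edgeR 4.0.16 (R 4.3.3) filtered the 12289 features with filterByExpr, which kept 11776 and left out 513, scaled libraries with TMM and fitted 1 quasi-likelihood model over 24 libraries with 1 mean per group (18 residual and 6.72 prior degrees of freedom). Tests are two-sided, adjusted over all features tested, with a call at an adjusted p under 0.05. The SE is the log2 change divided by the square root of F. CPM used for log2 values had a prior count of 2. The fits were tested on simulated data. A change beyond wt is T60 against T0 in a degron strain minus the same in wt.

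Depth was 41.8 M to 83.9 M counts per library. Named genes are RTC3, its flanking features, both tagged genes, SDO1, the features next to RTC3 in rank, the 10 and 5 most alike, and, per list, up to 4 with the smallest p in dcp2-ideg plus those called in lsm1-ideg. Others were named after their values were seen. The alternatives were 2 other scalings, 2 other filters, a replicate block, only the groups compared, DESeq2 1.42.0 and 1 library left out at a time. In 1 more, wt T60 replicate 3 and dcp2-ideg T0 replicate 4, which stood apart, were left out together. Others stood apart too. Chi-square per degree of freedom between replicates was 266 to 273 for pairs with dcp2-ideg T60 replicate 4, against 39.0 to 73.8 for the rest. For wt T0 replicate 4 it was 125 to 206, against 33.1 to 45.8. These were left out only 1 at a time. Promoter letters and gene coordinates come from the RefSeq genome of the same build, searched with blastn 2.17.0 at an e-value of 1e-05. No 2 replicates agreed within sampling noise.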

Additional observations from a re-analysis of the deposited data

Results flagged for a closer look

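In groups of 4 libraries, 3 of the 90 sets of values examined had 1 library far from the other 3. The gap to the nearest was above the critical share of the range for 4 values, and chance gives about 1 in 20 such sets. RTC3 had 4.73 CPM in lsm1-ideg T0 replicate 4, and 6.31 to 6.58 CPM in the other 3. The antisense feature CUT_GIM_1310 had 0.489 CPM in lsm1-ideg T60 replicate 2, and 0.767 to 0.805 CPM in the others. NAM8 had 82.2 CPM in wt T60 replicate 3, the deepest library, and 57.5 to 60.3 CPM in the others.

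The response to the addition differed between the degron strains, by the test of the difference itself, for RTC3 and 6 of its flanking features. Over all features 15.2% were called higher and 13.3% lower in that test. SUT583, XUT_8R-137 and CUT_GIM_1310 share bases, so their calls are not separate. RTC3 was chosen on its changes in both strains, so its test is not independent of that choice. The log2 change in dcp2-ideg minus that in lsm1-ideg was 1.32 for RTC3, 1.27 for SUT583, 1.37 for XUT_8R-137, 2.04 for CUT_GIM_1310, -0.72 for IPI1, -0.73 for RPF1 and -1.29 for GAR1, each with an adjusted p under 0.05 from edgeR.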

How the results depend on the processing

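The difference of the RTC3 response between dcp2-ideg and lsm1-ideg kept its direction and its call under all 32 alternatives run, with adjusted p from 1.1e-07 to 0.000242 and values from 1.23 to 1.78. These runs reuse the libraries on which RTC3 was chosen. Under total count scaling the RTC3 change beyond wt in dcp2-ideg was 5.49 and the one between T60 and T0 was 5.27. With 1 library left out they ran from 4.90 to 5.11 and from 4.65 to 4.87. The RTC3 difference of lsm1-ideg T0 from wt T0, which was near 0, took the other sign with the replicate block (0.0037) and with DESeq2 (0.0029). It did so too without wt T60 replicate 3 and dcp2-ideg T0 replicate 4 (5.3e-05), and ran between -0.054 and 0.091 with 1 library left out.

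With a minimum of 10 CPM in 4 libraries, 3 flanking features were called in dcp2-ideg beyond wt and 3 in the difference between strains, since the low antisense features were not tested. In lsm1-ideg DESeq2 called 2 flanking features, and edgeR called 0 to 1 with 1 library left out. Of list members in lsm1-ideg, 8 were called, against 18 with the replicate block and 13 in a fit of only the groups compared. Over all features that comparison had 25 calls, against 57 with the block, 55 in the fit of only the groups compared and 90 by DESeq2. It had 47 without wt T60 replicate 3 and dcp2-ideg T0 replicate 4, and 16 to 50 with 1 library left out. Its count is thus unstable, and the cause was not tested. The replicate numbers were not taken to pair the samples. Same-numbered deviations correlated at 0.060 on average, against -0.020 for other numbers, and as low as -0.313. Still, 20 of 24 libraries were on average most like those of their own number. Replicates thus share some structure that the model without the block leaves out. Calls of single genes lost in some alternatives were those of CPR6 (13), GPP1 (18), CUT_GIM_1310 (17) and XUT_8R-137 (3), and, under total count scaling, IPI1, RPF1, SHO1, YVH1 and ARX1. Depth limits the antisense features and YHR086W-A, which had under 1 CPM in many libraries.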
